A study of Mus musculus with 4 samples.

Results

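The BMP receptors and the Smad proteins that carry their signal were examined as loci where Smad1 itself was called on chromatin in D4 EBs. The 10 genes were chosen by name: Bmpr1a, Bmpr1b, Acvr1, Acvrl1, Bmpr2, Eng, Smad1, Smad5, Smad9 and Smad4, out of 21938 protein-coding genes in GENCODE M21. Every peak of the 5 deposited lists that met a gene body extended by 20 kb on each side was taken, which gave 81 peaks of 76539 in all lists. Where peaks of different lists overlapped they were counted as 1 region, and the 81 peaks fell into 35 regions. Of these regions, 14 held a common DMSO site, an interval called by both peak callers in the vehicle-treated cells.

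BMP ligands act through heteromeric complexes of type I and type II serine/threonine kinase receptors at the cell surface. The activated type I receptor phosphorylates Smad1, Smad5 or Smad9, which then bind the shared partner Smad4, enter the nucleus and contact regulatory DNA with other transcription factors. In the gastrulating embryo and in differentiating ES cells this pathway is required for mesoderm, and endoglin, an auxiliary receptor, marks the mesodermal cells that give rise to blood and endothelium.

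EBs, floating clusters of differentiating ES cells, were grown from the GFP-Bry ES cell line, a C57BL/6 line per the labels, with GFP in the Bry locus. Day 3 EBs were dissociated, reaggregated either with IWR-1, an inhibitor of canonical Wnt signalling, at 10 µM or with its vehicle DMSO, and collected after 24 h. Smad1 ChIP and input chromatin were sequenced with 1 library each per treatment. All 4 libraries came from unsorted cultures of 1 cell line, so the cell types behind a peak cannot be told apart. With 1 ChIP library per treatment differences between DMSO and IWR-1 cannot be set against replicate error, and p-values are not given. Read counts are not part of the lists, so how deeply a given peak was sequenced is unknown, and an interval missing from a list was not called there, which does not show that Smad1 was absent.

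For DMSO, the MACS list held 15927 peaks and the QESEQ list 26070 peaks. Each of the 10466 common DMSO sites was identical to an interval of that QESEQ list and overlapped a peak of that MACS list, and the DMSO lists are identified by these coordinates, since the labels of the samples disagree with the contents of some lists. The MACS list and the common sites are attached to the DMSO input library and the QESEQ list to the IWR-1 input library. The IWR-1 QESEQ list, attached to the IWR-1 ChIP library, held 16261 peaks. The remaining list, called here the second MACS list, held 7815 peaks. Its label names the DMSO ChIP library, and it is read here as the MACS list of IWR-1 only because no other list is left for that role. Every call in it rests on this reading. Positions refer to mm10 and are counted from 1. A distance is that of the centre of a peak, site or region from the annotated 5′ end of the gene, positive in the direction of transcription.

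The sequences below are those of common DMSO sites on which the later comparisons turn, read from NCBI GRCm38, the assembly behind mm10, on the plus strand, 5′ to 3′, and cut to at most 300 bases around the centre of the site, shifted where needed to keep a GC-rich element. Capitals mark matches, on either strand, to GGCGCC or GGAGCC, the GC-rich element bound by Smad proteins, to CAGACA, a longer form of the Smad box, or to AGATAA, the core of the GATA element. The Bmpr1b site at +84.9 kb and the Acvr1 site at +47.2 kb were called in both IWR-1 lists, and the Bmpr2 site had the highest score. The Acvr1 site at +47.2 kb, the Bmpr1b site at +238 kb, the Acvrl1 site and the Eng site at +53.0 kb hold a GC-rich element. The last pair, at Eng +30.2 kb and at Acvr1 +5.67 kb, were added after their values were seen, because the former lies inside the endoglin gene and the latter is the only site with CAGACA. The stretch shown of the latter lies just upstream, in the direction of transcription, of an exon annotated by RefSeq.
Bmpr1b, +84.9 kb chr3:142084381-142084680: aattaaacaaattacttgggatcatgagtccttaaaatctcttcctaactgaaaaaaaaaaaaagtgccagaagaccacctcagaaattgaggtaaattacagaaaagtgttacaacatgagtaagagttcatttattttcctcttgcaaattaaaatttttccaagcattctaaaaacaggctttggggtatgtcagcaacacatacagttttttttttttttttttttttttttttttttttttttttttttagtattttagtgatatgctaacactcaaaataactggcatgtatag
Acvr1, +47.2 kb chr2:58519759-58520058: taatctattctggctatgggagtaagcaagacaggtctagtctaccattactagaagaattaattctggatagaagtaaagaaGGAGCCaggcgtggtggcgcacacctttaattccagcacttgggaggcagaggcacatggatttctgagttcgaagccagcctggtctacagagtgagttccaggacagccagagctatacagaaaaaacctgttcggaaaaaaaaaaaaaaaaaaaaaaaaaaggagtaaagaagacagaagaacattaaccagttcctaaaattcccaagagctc
Bmpr2, +96.9 kb chr1:59860156-59860455: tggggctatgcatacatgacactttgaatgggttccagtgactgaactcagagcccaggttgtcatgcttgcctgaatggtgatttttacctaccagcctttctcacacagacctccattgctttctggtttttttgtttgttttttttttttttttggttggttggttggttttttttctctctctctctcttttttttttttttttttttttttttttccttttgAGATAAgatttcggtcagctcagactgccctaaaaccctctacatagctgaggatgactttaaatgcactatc
Bmpr1b, +238 kb chr3:141931714-141932013: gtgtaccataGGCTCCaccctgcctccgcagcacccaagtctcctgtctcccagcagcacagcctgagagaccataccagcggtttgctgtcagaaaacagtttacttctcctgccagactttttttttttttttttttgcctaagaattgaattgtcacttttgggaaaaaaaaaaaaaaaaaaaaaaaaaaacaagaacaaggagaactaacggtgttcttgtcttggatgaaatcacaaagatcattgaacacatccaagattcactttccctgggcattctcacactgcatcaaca
Acvrl1, +9.32 kb chr15:101137703-101137983: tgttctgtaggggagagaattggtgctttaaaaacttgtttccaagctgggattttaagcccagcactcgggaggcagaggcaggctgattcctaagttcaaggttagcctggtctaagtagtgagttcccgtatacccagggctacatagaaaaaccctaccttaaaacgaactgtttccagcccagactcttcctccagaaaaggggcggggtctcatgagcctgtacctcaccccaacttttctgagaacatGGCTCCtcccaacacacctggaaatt
Eng, +53.0 kb chr2:32699454-32699753: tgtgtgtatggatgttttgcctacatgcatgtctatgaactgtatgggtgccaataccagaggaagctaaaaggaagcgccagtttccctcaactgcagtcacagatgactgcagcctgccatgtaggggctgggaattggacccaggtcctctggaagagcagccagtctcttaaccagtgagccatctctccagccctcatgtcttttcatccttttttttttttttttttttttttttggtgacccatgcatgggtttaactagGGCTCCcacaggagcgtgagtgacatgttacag
Eng, +30.2 kb chr2:32676660-32676959: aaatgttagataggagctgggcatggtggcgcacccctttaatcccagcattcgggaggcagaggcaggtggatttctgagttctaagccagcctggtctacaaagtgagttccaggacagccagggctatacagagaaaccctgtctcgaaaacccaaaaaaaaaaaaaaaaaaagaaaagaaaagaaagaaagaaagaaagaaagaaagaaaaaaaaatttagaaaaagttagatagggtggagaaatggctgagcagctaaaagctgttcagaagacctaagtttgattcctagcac
Acvr1, +5.67 kb chr2:58561411-58561637: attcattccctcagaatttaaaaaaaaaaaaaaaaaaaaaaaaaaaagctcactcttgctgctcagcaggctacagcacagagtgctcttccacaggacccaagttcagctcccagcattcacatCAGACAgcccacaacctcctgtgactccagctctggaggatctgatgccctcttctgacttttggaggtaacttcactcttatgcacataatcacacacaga
Long unbroken runs of T or A stand out in most of these sequences. The Bmpr1b site at +84.9 kb holds 44 T in a row, whereas the Acvrl1 site holds no run longer than 5. The GC-rich element reads GGAGCC on the plus strand at Acvr1 and GGCTCC at Bmpr1b, Acvrl1 and Eng, which is the same element on the other strand.

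All 10 genes had at least 1 region, but the same share over all protein-coding genes was not computed. A common DMSO site lay at 8 of the 10. Each of the 6 receptor and co-receptor genes had a common DMSO site, with 12 sites among them. Of the 4 Smad genes, Smad1 and Smad4 had 1 site each, and Smad5 and Smad9 had none. The 8 of 10 genes with a common DMSO site within 20 kb stand beside 35.1% of all protein-coding genes. A DMSO MACS peak was listed at the same number, 8 of 10 genes (44.2% of all), and a DMSO QESEQ peak at 9 of 10 (60.2% of all). In the IWR-1 QESEQ list 7 of 10 genes had a peak (47.2% of all), and in the second MACS list 5 of 10 (26.8% of all). These windows are long, with a median of 102.9 kb (56.8 to 372 kb) against 57.4 kb over all protein-coding genes, and a longer window meets more peaks, so counts per length are given further on. In the GENCODE models none of the 14 sites overlapped an exon of its own gene, and the map of the peaks shows none of them within 5 kb of the annotated 5′ end. Counting every GENCODE start, alternative starts and those of other genes included, 35.7% of the sites lay within 5 kb of one. The shares of all common sites were not computed for these counts.

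**Figure D1:**
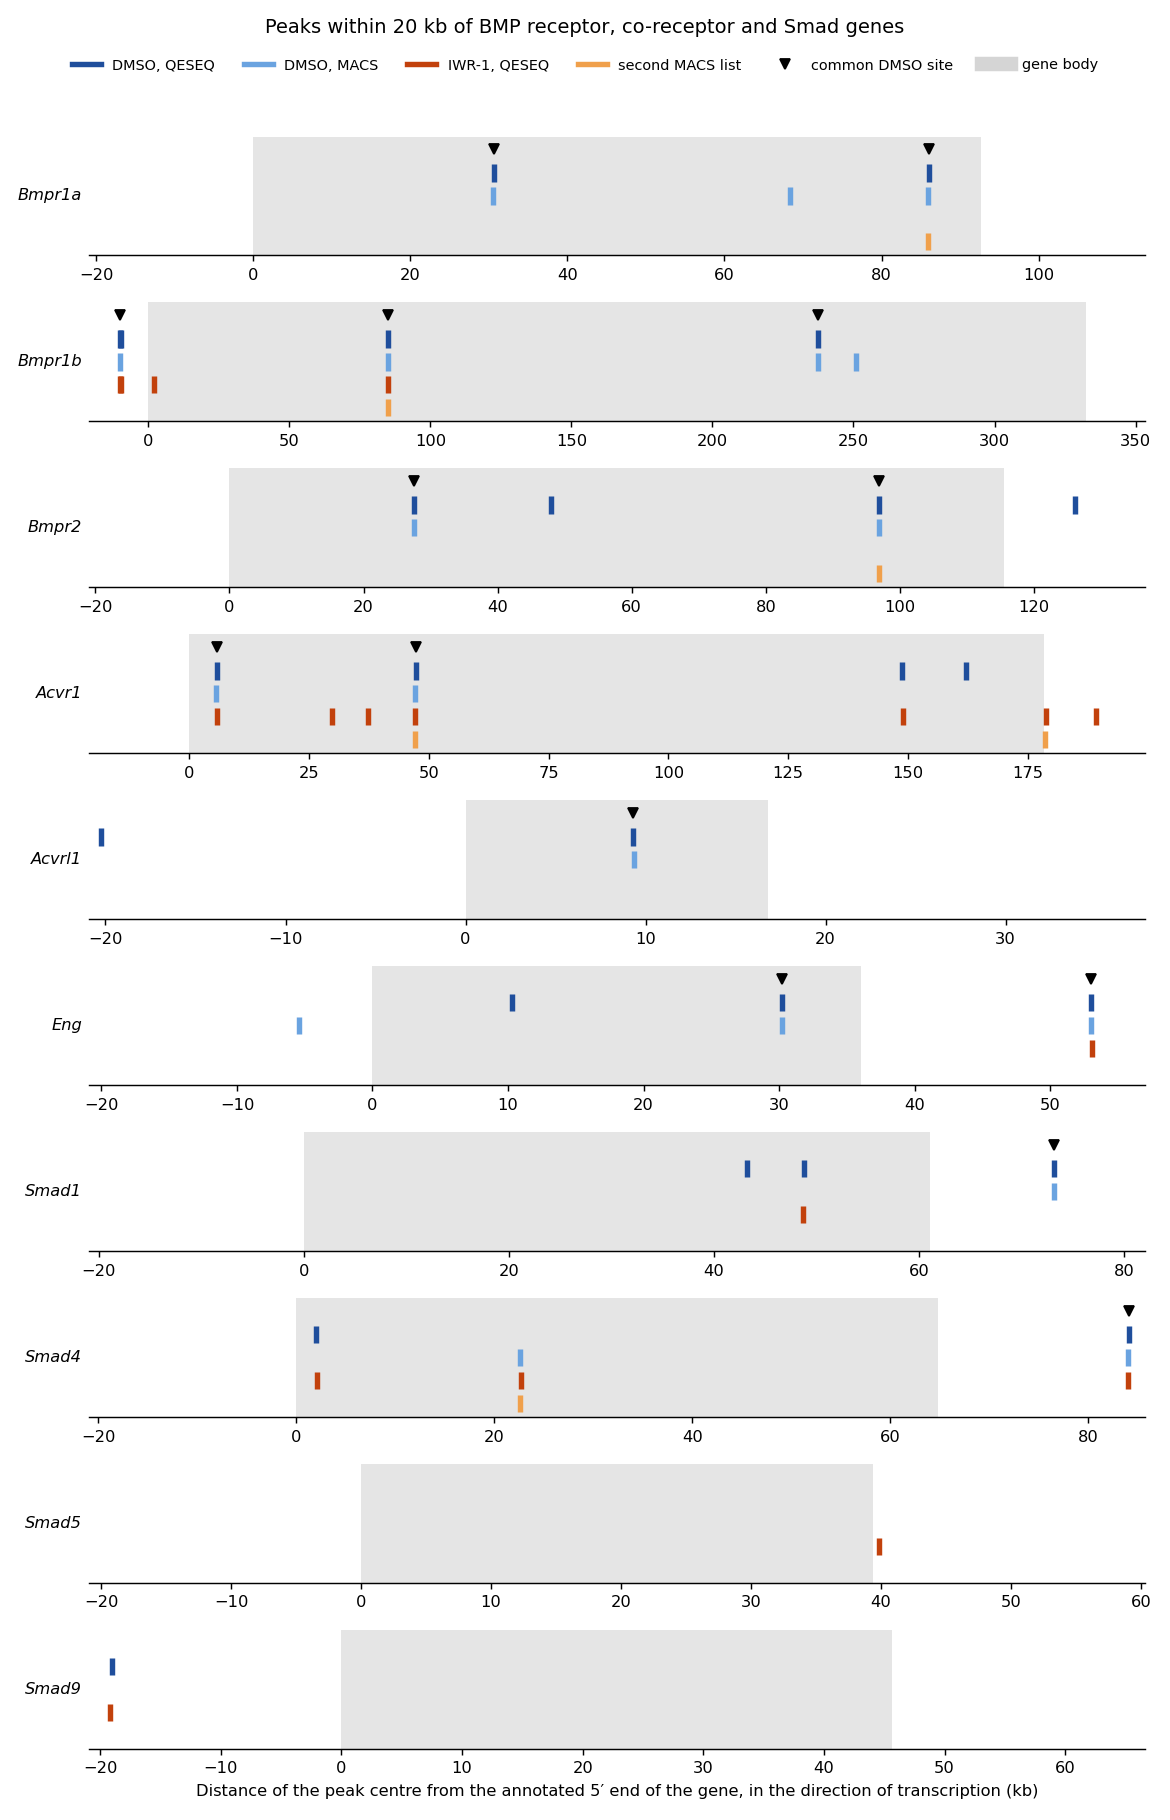
Peaks of each list along the 10 genes, as distance from the annotated 5′ end in kb (the scale differs between genes), with coloured ticks for peaks of the 4 calling lists. Triangles are common DMSO sites, grey is the gene body, and triangles are seen at 8 genes but not at Smad5 and Smad9.

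Among the type I receptors, Bmpr1a encodes the broadly expressed receptor for BMP ligands that mouse embryos need in order to form mesoderm. Its body spans chr14:34410734-34503341 on the minus strand, and both of its common DMSO sites lay in introns. The site in intron 10 (chr14:34417052-34417656, +86.0 kb) had a DMSO MACS score of 63.0, percentile 44.4 of that list, was not in the IWR-1 QESEQ list, and met an interval of the second MACS list whose score was 51.2. The site in intron 1 (chr14:34472610-34472898, +30.6 kb) had a score of 68.2 and was in neither IWR-1 list. It holds TGAGTCA, the reverse complement of the AP-1 element TGACTCA. MACS alone listed a further DMSO peak in intron 5, at +68.4 kb, with a score of 64.7. Repeats masked 98.4% of that interval. The IWR-1 QESEQ list held no peak within 20 kb of Bmpr1a, while the DMSO QESEQ list held 2.

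Bmpr1b encodes a type I receptor of more restricted expression, best known from cartilage and ovary. It is the longest of the 10 genes (chr3:141837136-142169425, minus strand), with several alternative starts, and had the most common DMSO sites, 3. The site farthest into the gene (chr3:141931687-141932123, +238 kb) lay in intron 1 of the main transcript and near an alternative start. Its centre was 382 bp from a GENCODE start of Bmpr1b and 317 bp upstream of one in RefSeq. A table of RefSeq promoter windows, from 250 bases before to 50 after a start, lists 12 windows for these genes and does not cover every RefSeq start. Common DMSO sites overlapped 1 of the 12, that of Bmpr1b at this site, beside 0.989% of all windows in the table. The score of this site was 54.3, and neither IWR-1 list held it.

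The other common DMSO sites of Bmpr1b were both called after IWR-1. The site at +84.9 kb (chr3:142084354-142084707), which precedes the start of the main transcript, had a DMSO score of 53.7, percentile 14.9. It overlapped an IWR-1 QESEQ peak that covered 49.2% of it and a peak of the second MACS list with a score of 77.5, percentile 74.9 of its own list. Scores of separate lists have no common scale, and these ranks hold only within each list. This site is very poor in G and C, with 28.0% GC, lower than in all but 0.707% of common sites. The site 10.1 kb upstream of the gene (chr3:142179287-142179692) had a score of 72.8, and an IWR-1 QESEQ peak covered 97.3% of it. Next to it, at -9.54 kb, a region was called by QESEQ in both treatments and by MACS in neither. MACS alone listed a DMSO peak at +251 kb with a score of 80.0, and QESEQ alone listed a peak after IWR-1 at +2.14 kb, 1928 bp from the nearest annotated start of Bmpr1b.

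Acvr1 encodes a type I receptor for BMP ligands that is needed for gastrulation in mice. In its window (body chr2:58388644-58567157, minus strand) the IWR-1 QESEQ list held 7 peaks, more than the 4 of the DMSO QESEQ list, and it was the only gene with a count this high in any list. Both common DMSO sites of Acvr1 were also in the IWR-1 QESEQ list. The site in intron 2 (chr2:58519625-58520192, +47.2 kb) had a DMSO score of 62.5, overlapped an IWR-1 QESEQ peak over 73.8% of its length, and met a peak of the second MACS list with a score of 53.7. It is 1 of 2 regions among the 35 that all 4 calling lists held, the other being Bmpr1b at +84.9 kb. Its GGAGCC match lay at -63 bp from the centre of the site on the plus strand, closer to the centre than the GGAGCC match of any other site here.

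The other Acvr1 site, in intron 1 (chr2:58561332-58561637, +5.67 kb), had a DMSO score of 56.5 and was wholly covered by an IWR-1 QESEQ peak. Its centre lay 74 bp upstream of a RefSeq start of Acvr1, and the interval overlaps the exon that begins there. In GENCODE the nearest start was 5342 bp away. Besides CAGACA, it holds 3 matches to AGATAA within a short stretch. QESEQ listed an interval at +149 kb in both treatments and at +162 kb with DMSO alone, both inside the gene body and beyond the end of the main transcript. After IWR-1 alone, regions were listed in intron 2 at +29.8 kb and +37.2 kb and past the main transcript at +179 kb and +189 kb. For those at +179 kb and +189 kb the nearest annotated start was that of the neighbouring gene Acvr1c, 30634 and 20108 bp away. The region at +189 kb also met the body of Acvr1c extended by 20 kb. Of these 4 regions, that at +179 kb was in both IWR-1 lists, with a score of 50.4 in the second MACS list, close to the lowest score of 50.0 that the list contains. At that position the peak of the second MACS list overlapped the last exon, numbered 11, of a noncoding transcript of Acvr1.

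Acvrl1 encodes a type I receptor of endothelial cells that responds to circulating BMP ligands. It is the shortest of the 10 genes (chr15:101128522-101145336, plus strand), and its 1 common DMSO site (chr15:101137703-101137983, +9.32 kb) was in intron 8. The score of 51.0, at percentile 4.22 of the list, was the lowest of the 14 sites. It differed from the other sites in composition, with the highest GC content, 49.1%, and without a long run of A or T. The centre of the site was 243 bp from the start of a noncoding transcript of Acvrl1 and 3710 bp from the nearest coding one. QESEQ alone listed a DMSO peak at -20.2 kb, whose nearest annotated start, at 7469 bp, was that of Ankrd33. Neither IWR-1 list held a peak within 20 kb of Acvrl1.

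Bmpr2 encodes the type II receptor that is specific to BMP ligands, and its loss in mice stops development at gastrulation. The common DMSO sites with the highest scores among the 10 genes lay here (body chr1:59763400-59879014, plus strand). The site in intron 10 (chr1:59860022-59860588, +96.9 kb) had the highest DMSO MACS score of all, 90.7, at percentile 84.2. It was not in the IWR-1 QESEQ list, while a peak of the second MACS list covered 86.6% of it with a score of 64.4. It holds 1 match to CTTTGTT, an element bound by TCF/LEF, and 1 to AGATAA. The site in intron 1 (chr1:59790604-59791191, +27.5 kb) had a score of 79.8 and was in neither IWR-1 list, and repeats masked 68.5% of it. QESEQ alone listed DMSO peaks at +47.9 kb and +126 kb, neither of which was called after IWR-1. In the QESEQ lists, Bmpr2 thus went from 4 peaks with DMSO to 0 with IWR-1.

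Eng encodes endoglin, the auxiliary receptor of endothelial and early haematopoietic cells that binds BMP ligands and assists type I receptor signalling. Its body spans chr2:32646595-32682669 on the plus strand. Inside the gene, 1 common DMSO site lay in intron 8 (chr2:32676638-32676980, +30.2 kb), with a score of 55.0, percentile 19.4. Neither IWR-1 list held it. Repeats masked 88.3% of this interval, percentile 95.1 of that share over all common sites, and none of the 8 elements searched was found in it. The other common DMSO site of Eng (chr2:32699421-32699785) lay at +53.0 kb, beyond the 3′ end of Eng. It met the annotated body of the neighbouring gene Fpgs, which encodes an enzyme of folate metabolism, but lay upstream of the main Fpgs transcript. The nearest start, at 4428 bp, was one of Fpgs. The score of this site was 62.6, and an IWR-1 QESEQ peak covered 85.8% of it. Closer to the 5′ end of Eng, a DMSO peak of MACS alone at -5.45 kb had a score of 50.8, and a DMSO peak of QESEQ alone lay in intron 1 at +10.3 kb. Neither had a call after IWR-1, so the only region of the Eng window in an IWR-1 list was the distal one, upstream of the main Fpgs transcript.

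Among the receptor-activated Smads, Smad1 encodes the protein that the antibody recognised. In its window (body chr8:79338395-79399518, minus strand) the only common DMSO site lay beyond the 3′ end of the gene, at +73.2 kb (chr8:79325909-79326722). It was the widest of the 14, 814 bp, had a score of 56.2, and was in neither IWR-1 list. QESEQ alone listed peaks at +48.7 kb, in intron 4, in both treatments, and at +43.3 kb with DMSO. The latter covered exon 3, which is coding, and with 56.0% GC and no run above 4 it was the region of highest GC content near these genes. Smad5, which acts with Smad1 downstream of BMP receptors, had no DMSO peak in any list within 20 kb (body chr13:56703010-56742377, plus strand). Its only peak was in the IWR-1 QESEQ list, just beyond the end of the gene at +39.8 kb. Smad9, the least studied of this class of Smads, likewise had no common DMSO site (body chr3:54755582-54801257, plus strand). QESEQ listed a region at -19.2 kb in both treatments, in intron 1 of Alg5, an enzyme of protein glycosylation, and 852 bp from the nearest start of that gene.

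Smad4 encodes the partner shared by all receptor-activated Smads. Its common DMSO site (chr18:73619557-73619905) was at +84.0 kb, beyond the 3′ end of the gene, with a score of 58.7. An IWR-1 QESEQ peak covered the whole of it. Within intron 1, a region at +22.6 kb was listed by MACS with DMSO (score 51.3) and was in both IWR-1 lists, with a score of 52.7 in the second MACS list. QESEQ listed a further region, at +2.05 kb, in both treatments. Each of the 3 regions of Smad4 thus had a call in the IWR-1 QESEQ list, and no other gene with a common DMSO site and more than 1 region had this.

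Across the 14 common DMSO sites, 6 overlapped a peak of the IWR-1 QESEQ list, which is 42.9% (95% exact binomial interval 17.7% to 71.1%, counting error over sites only). The same share over all 10466 common sites was 37.0%, well inside that interval. The 6 sites were those of Bmpr1b at -10.1 kb and +84.9 kb, both sites of Acvr1, and the distal sites of Eng and Smad4. In the second MACS list 4 of the 14 sites had a call (28.6%, interval 8.39% to 58.1%, beside 25.8% of all sites), at Bmpr1a, Bmpr1b, Bmpr2 and Acvr1. At least 1 IWR-1 list held 8 of the 14 (57.1%, beside 44.4% of all), and both lists held 2 of the 14 (14.3%, beside 18.4% of all). At each of these readings the share at the receptor and Smad genes stood near that of all sites, and the intervals are wide at this number of sites.

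Both callers listed fewer peaks after IWR-1 in these windows. The QESEQ count went from 25 to 18, which is 72.0%, beside 62.4% for the whole lists. The MACS count went from 18 to 6, 33.3% beside 49.1%, where the latter list is the second MACS list. By gene the QESEQ lists moved in both directions. Peaks were fewer after IWR-1 at Bmpr1a (2 and 0), Bmpr2 (4 and 0), Acvrl1 (2 and 0), Eng (3 and 1) and Smad1 (3 and 1). They were more at Acvr1 (4 and 7), Smad4 (2 and 3) and Smad5 (0 and 1), and equal at Bmpr1b (4 and 4) and Smad9 (1 and 1). The receptors and endoglin together had 19 QESEQ peaks at 6 genes with DMSO and 12 at 3 genes with IWR-1, and the Smads had 6 at 3 genes and 6 at 4 genes. Whether these counts follow the treatment or the difference between 2 single libraries cannot be told apart.

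Some peaks were listed only after IWR-1. Of the 18 IWR-1 QESEQ peaks, 6 overlapped neither DMSO list, beside 52.9% of all peaks of that list. The Acvr1 window held 4 of these 6. In the second MACS list 1 of 6 peaks did so, beside 29.0% of all. Conversely, 11 DMSO QESEQ peaks had no DMSO MACS peak, and 5 of them had an IWR-1 QESEQ call, beside 17.1% of all such peaks. These 5 were at Bmpr1b, Acvr1, Smad1, Smad4 and Smad9. No intervals were computed for these shares, and with counts this small a difference from all peaks cannot be read from them. Over all 15 regions with a single DMSO caller, 6 had a call in an IWR-1 list and 9 had none. The same share over all such regions was not computed, and the 17.1% is that of QESEQ peaks only. The grid of calls by region shows these groups gene by gene.

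**Figure D2:**
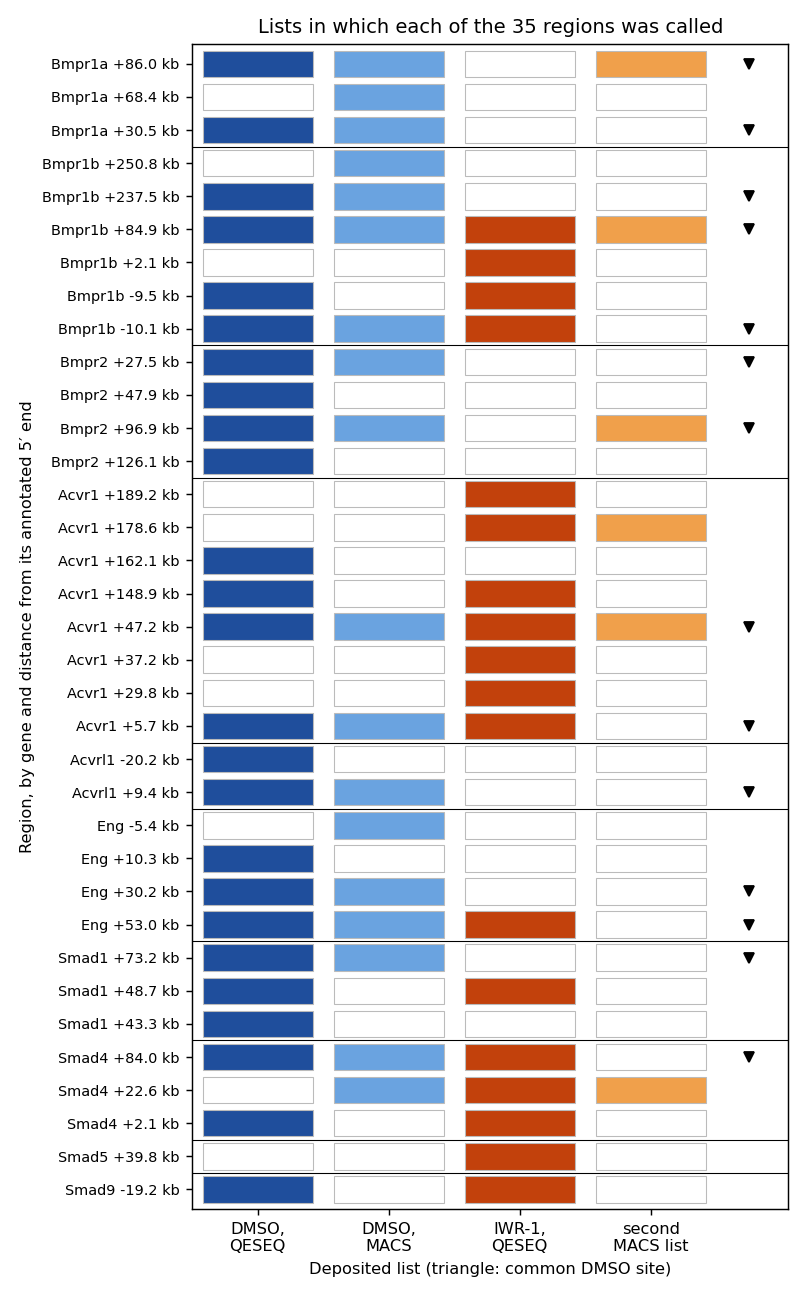
Calls of the 35 regions (rows, by gene and distance from the 5′ end in kb) in the 4 calling lists (columns), where a filled box is a call and a triangle marks the 14 common DMSO sites. The Bmpr1a, Bmpr2 and Acvrl1 rows have no box in the IWR-1 QESEQ column, and the 6 rows without a DMSO box are 4 of Acvr1, 1 of Bmpr1b and 1 of Smad5.

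Scores of the DMSO MACS list run from 50.0 to 3226 with a median of 65.3. A site was given the highest score among the DMSO MACS peaks that overlap it. Scores of the 14 sites ran from 51.0 at Acvrl1 to 90.7 at Bmpr2 with a median of 60.6, beside 66.6 over all common sites. On the percentile scale the median was 37.6 (range 4.22 to 84.2), with an interval of the median, from ranked values at a level of at least 95%, of 16.9 to 65.0. The median of 52.8 over all common sites lies inside it. None of the 14 reached a score of 100, which 10.6% of all common sites did, and a count of 0 in 14 allows a share of up to 23.2% by the exact interval. Of the 18 DMSO MACS peaks in the windows, 5 were at or above the median of their list, at Bmpr1a, Bmpr1b and Bmpr2. Over all common sites, those with an IWR-1 QESEQ call had a median score of 71.4 and those without one 64.3. Here the medians were 60.6 for the 6 sites with a call (53.7 to 72.8) and 59.6 for the 8 without (51.0 to 90.7), and the ranges overlap throughout.

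**Figure D3:**
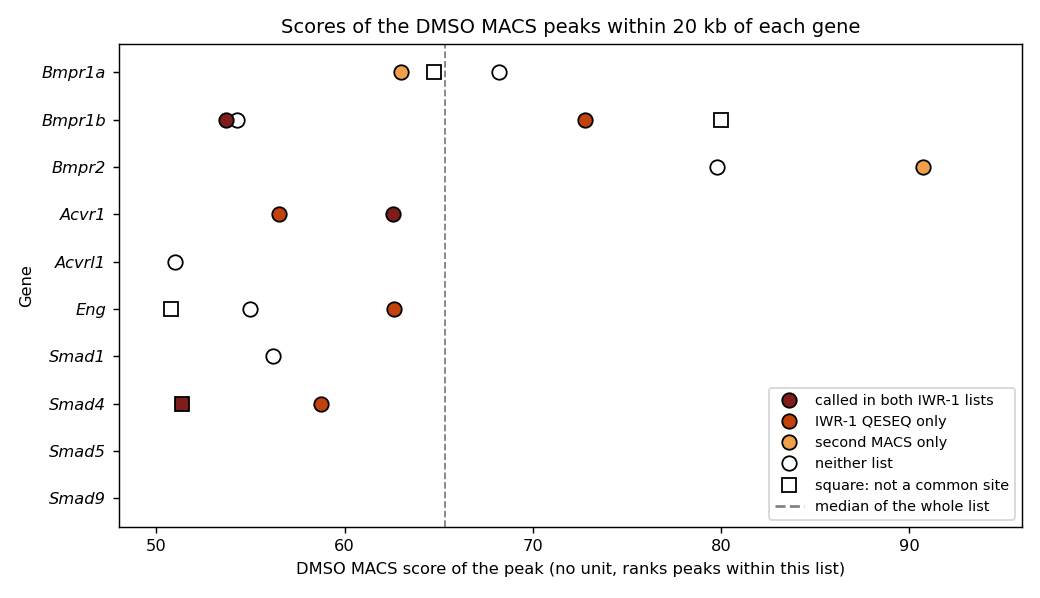
DMSO MACS score (horizontal axis, no unit) of each of the 18 DMSO MACS peaks, by gene. Circles are common DMSO sites, squares are MACS peaks without a DMSO QESEQ call, and the fill gives the IWR-1 calls. The dashed line is the median of the whole list, 65.3; 5 peaks lie to its right, and filled and open symbols lie on both sides.

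Counts per length set the genes beside others whatever the length of their windows. The 1.38 Mb of window held 10.1 sites per Mb (95% Poisson interval 5.54 to 17.0), beside 5.04 over the windows of all protein-coding genes and 3.84 over the genome. Density in the DMSO MACS list was 13.0 per Mb (7.71 to 20.6), beside 7.23 over coding windows, and that in the DMSO QESEQ list was 18.1 (11.7 to 26.7), beside 12.9. After IWR-1 the QESEQ list gave 13.0 per Mb (7.71 to 20.6) beside 8.07. The second MACS list gave 4.34 (1.59 to 9.44) beside 3.52. The coding-window value lay below the interval for the common sites and for the DMSO MACS list and inside it for the DMSO QESEQ and second MACS lists. For the IWR-1 QESEQ list it also lay inside, near the lower bound. For the common sites this depends on the window, since with 10 kb on each side the density was 9.30 per Mb (4.64 to 16.6) and the coding-window value of 5.08 lay inside the interval. With 50 kb it was 9.58 (5.77 to 15.0), beside 4.87. These intervals cover counting error only and treat peaks as independent.

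**Figure D4:**
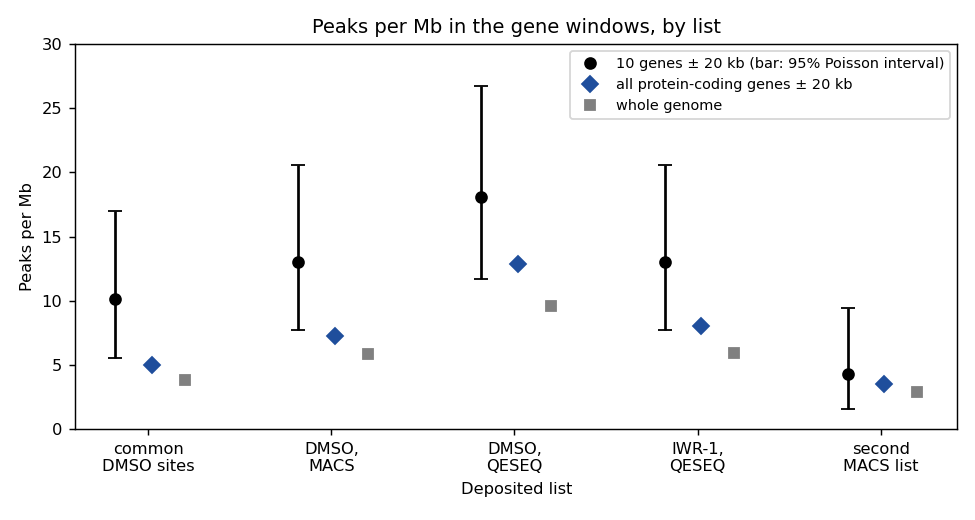
Peaks per Mb (vertical axis) in the windows of the 10 genes (black points with 95% Poisson intervals), in those of all protein-coding genes (diamonds) and over the genome (squares), for each list. The point for the common DMSO sites, 10.1 per Mb, stands above the diamond at 5.04, and the lower end of its bar, 5.54, is above that value; for the second MACS list the bar spans all 3 values.

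Few of the sites lay at starts of transcription. The centre of 2 of 14 was within 1 kb of a start annotated in GENCODE, at Bmpr1b (+238 kb) and Acvrl1, which is 14.3% (interval 1.78% to 42.8%) beside 11.9% of all common sites. This count leaves out the Acvr1 site at +5.67 kb, whose centre was 74 bp from a start that RefSeq alone places there. Of the 14, 9 lay in an intron of the main GENCODE transcript, at Bmpr1a, Bmpr1b, Bmpr2, Acvr1, Acvrl1 and Eng. The windows were drawn around gene bodies, and the share of all common sites in introns was not computed. No region of these genes met a tRNA gene or an enhancer annotated by RefSeq. The shares of all peaks that met these were not computed either. In GC content the sites were like the rest, with a median of 42.0% (28.0% to 49.1%) beside 41.5%. Repeats masked a median of 39.8% (14.8% to 88.3%) beside 38.2%, and the width had a median of 386 bp beside 423 bp.

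Of the 8 elements searched, the GC-rich Smad elements GGCGCC and GGAGCC were found in 4 of 14 sites, 28.6% (interval 8.39% to 58.1%), beside 18.9% of all common sites. All 4 were GGAGCC, at Bmpr1b, Acvr1, Acvrl1 and Eng (17.4% of all sites), and none was GGCGCC (2.66% of all). In the central 200 bp, where every site is read over the same length, 1 of 14 remained, at Acvr1, beside 8.62% of all sites. CAGACA was found in 1 site, at Acvr1 (7.14%, interval 0.181% to 33.9%), beside 32.0% of all sites, which lies inside the interval. In the central 200 bp the same site was the only one, beside 14.7%, also inside it. The palindromic Smad element GTCTAGAC was in none (0.411% of all). Of the TCF/LEF elements, CTTTGTT was in 1 site, at Bmpr2 (11.9% of all), and CTTTGAT in none (7.47% of all). AGATAA was in 3 sites, at Bmpr2, Acvr1 and Smad1 (21.1% of all), and TGACTCA in 1, at Bmpr1a (6.68% of all). All were read on both strands. No element was shared by more than 4 of the 14 sites, and a match describes the letters in an interval without showing that a factor bound there.

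An unbroken run of at least 7 A or 7 T was the feature that most sites had in common, present in 13 of 14 (92.9%, interval 66.1% to 99.8%). The share over all common sites was 90.3%, inside that interval. In the central 200 bp the same 13 of 14 sites held a run, beside 76.1% of all sites, which also lies inside the interval. The longest run per site had a median of 26.5 bases (5 to 44) beside 25 over all sites, and Acvrl1 was the exception. A run was also present in 12 of the 15 regions with a single DMSO caller and in 4 of the 6 regions listed after IWR-1 only. In the latter the longest runs were between 4 and 25 bases. Shares over all regions of these kinds were not computed, and the 90.3% of common sites is no measure for them. The 6 common sites with an IWR-1 QESEQ call had longest runs of 26 to 44 bases (median 27.5) and the 8 without one had 5 to 32 (median 24). Over all common sites the same split gave medians of 26 and 25 bases. The part of these runs in the calls was not tested.

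Of the other genes of the pathway, listed by role, 15 of 27 (55.6%) had a common DMSO site within 20 kb, beside the 35.1% of all protein-coding genes. Their windows had a median of 101.7 kb, which is also longer than the 57.4 kb of protein-coding genes in general. Among the activin and TGF-β receptors these were 4 of 8, Acvr1b, Acvr2a, Amhr2 and Tgfbr3, with 6 sites. Acvr2a, a type II receptor that BMP ligands also use, had 2 sites and neither was in an IWR-1 list, as at the intron 1 site of Bmpr2. Tgfbr3, an auxiliary receptor related to endoglin, had 2 sites, and the IWR-1 QESEQ list held both. Of the other Smads only Smad3, a transducer of activin and TGF-β signals, had common DMSO sites, 2 of them. Smad2, Smad6 and Smad7 had none, as was seen for Smad5 and Smad9; Smad6 and Smad7 are the inhibitory Smads. Of the co-receptors, Rgma and Rgmb had 1 site each, and Bambi, a pseudoreceptor, and Hjv (listed as Hfe2) had none. Among the modifiers and partners of Smads, 8 of 11 had a site, with 3 each at Smurf2, a ubiquitin ligase of Smads and receptors, and Zfp423, a DNA-binding partner of Smad1. Of the 22 sites in these 27 windows, the IWR-1 QESEQ list held 8 (36.4%, beside 37.0% of all common sites) and the second MACS list 5 (22.7%, beside 25.8%). At the BMP receptors and their Smads these lists held 6 and 4 of the 14 sites.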

How the data were processed

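Smad1 ChIP and input chromatin of D4 EBs treated for 24 h with DMSO or 10 µM IWR-1 were sequenced, with 1 library each. Per the submitters' processing notes, CASAVA 1.8, Bowtie2 2.1.0 and MACS 1.0.1 were used with mm10. The authors aligned the reads, removed duplicates and called peaks per treatment with MACS and with QESEQ. The deposited lists give peak positions, and the authors' MACS lists also give a score for each peak, which was used only to rank peaks within its list. No read counts were used here, so depth and precision per peak are unknown.

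Samples were grouped by their titles. Because list contents and labels disagree, the DMSO lists were identified by coordinates, and the second MACS list was assigned to IWR-1 by elimination. QESEQ positions were read as counted from 0, like those of MACS, and all are given counted from 1. Overlap was counted from 1 bp. Genes and transcripts came from GENCODE M21, and sequences and repeat masking those of NCBI GRCm38, with starts and enhancers also from RefSeq. The main transcript of a gene was its first-numbered coding transcript with the principal annotation. Promoter windows, from 250 bases before to 50 after a start, were taken for 8 of the 10 genes. Elements were searched on both strands in whole sites and in the central 200 bp. Intervals at 95% are exact binomial (Clopper-Pearson) for shares and exact Poisson for densities. The overlap and element steps were tested on simulated data, and 2000 of 2000 planted cases were recovered in each.

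The 10 genes, the lists of other pathway genes and the alternatives were chosen with earlier results of these data known. All 10 genes were named with every peak within 20 kb, and other genes only where their start was nearest to such a peak or where they were on the pathway lists. Sequence was printed for sites outside UTRs and outside chromosome 18 with a GC-rich element, with the highest score, or called in both IWR-1 lists. The common DMSO site on that chromosome, at Smad4, had none of these features. A pair chosen after their values were seen was also printed. Alternatives covered the list, the window, the overlap, the score threshold, the distance to a start and the element. The tools were pysam 0.24.0, scipy 1.17.1, numpy 2.4.6 and matplotlib 3.10.9, run in Python 3.11.15. Expression data were not analysed here.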

Additional observations from a re-analysis of the deposited data

How the results depend on the processing

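Of the 9 results at the BMP receptors and Smads, 40 alternatives were computed; 30 changed a value within the limits set (1.5 times a count, or the interval of a share) and 10 moved it further. With only sites of a score of at least 100, 0 genes, 0 sites and 0 sites per Mb (interval up to 2.67) remained, and the share with an IWR-1 call could not be computed. DMSO QESEQ peaks in place of common sites gave 25 sites and 18.1 per Mb. Requiring both IWR-1 lists gave a share of 14.3%. Reading the GC-rich element in the central 200 bp gave 7.14%, and CAGACA in its place also gave 7.14%. Peaks called only after IWR-1 numbered 1 in the second MACS list and 1 where both IWR-1 lists were required. The other choices gave 6 to 9 genes with a site, and a window of 50 kb gave an IWR-1 share of 57.9%. No paired analysis was possible because each group held 1 library, and for the same reason no library could be left out. Depth per peak is unknown, so an uncalled interval cannot be told apart from a weakly bound one.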
